A study of Mus musculus with 18 samples.

Results

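The genes described here are 10 genes of the hepatic acute phase response, the change in plasma protein production that follows injury or infection: Saa1, Saa2, Saa3, Orm1, Orm2, Hp, Hpx, Lcn2, Apcs and Itih4. They were taken by gene symbol, each matched 1 of the 54752 genes in the count table, and all 10 passed the filter on low counts that left 21914 genes for testing. RNA was sequenced from livers of male C57BL/6 mice, 1 library per mouse and 6 mice per group, 18 of the 45 mice that the protocol describes. Cirrhosis-PTH mice were injected intraperitoneally with 10% carbon tetrachloride (CCl4, a solvent that injures hepatocytes) in corn oil at 10 µl per g of body weight, 2 times each week, and received 0.25 mg per g of Pien Tze Huang by mouth every day (PTH below, a compound remedy of Chinese medicine, unrelated to parathyroid hormone). Cirrhosis mice had the same CCl4 injections and water by mouth. Control mice had injections of corn oil alone, at that volume and schedule, and the same water. All were 6 weeks old at purchase and were sampled after 12 weeks, and no mice had corn oil together with PTH, so PTH was seen only on top of CCl4.

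Libraries held between 62482144 and 112294112 counts, of which 31.4% to 60.8% fell on loci that collect ribosomal RNA reads. Levels are given as CPM, the count of a gene per M counts of its library after TMM scaling. Each log2 fold change is followed by its SE (standard error) and an adjusted p from edgeR's quasi-likelihood test, two-sided, with Benjamini-Hochberg adjustment over all genes tested, and a gene was called at an adjusted p under 0.05. All 10 of 10 hepatocyte marker genes had counts in every group, and their summed level ran from 38371 to 43892 CPM in Cirrhosis-PTH, from 24693 to 45445 CPM in Cirrhosis and from 37908 to 56304 CPM in Control. In such bulk samples, fewer cells of a type and less RNA per cell cannot be told apart.

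Hepatocytes make most acute phase proteins and secrete them into the blood. Interleukin-6 and its relatives act through the shared receptor gp130 and the transcription factor STAT3, while interleukin-1 and tumour necrosis factor act through NF-kB, and C/EBP factors join both routes at many acute phase promoters. The serum amyloid A proteins ride on high-density lipoprotein, orosomucoids bind drugs and lipids, haptoglobin captures free hemoglobin, hemopexin captures free heme, lipocalin-2 withholds iron by binding bacterial siderophores, and serum amyloid P is the main acute phase pentraxin of the mouse.

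The promoters of 5 of these genes are shown so that copies can be compared with a gene that followed the groups: Saa1 and Saa2, neighbouring copies whose levels moved together, Saa3 and Orm2, further members of the Saa and Orm families, and Apcs, which followed the groups. Sequences are those of RefSeq on GRCm38.p6, 200 bases from 250 to 51 bases before the annotated start, read 5′ to 3′ on the strand of the gene, with matches to the motifs named below in capitals.
Saa1 (chr7:46743031-46743230, minus strand): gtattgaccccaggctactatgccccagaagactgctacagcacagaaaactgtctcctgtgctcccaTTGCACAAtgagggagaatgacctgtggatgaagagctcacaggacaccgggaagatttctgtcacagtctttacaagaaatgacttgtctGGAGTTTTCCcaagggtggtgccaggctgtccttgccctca
Saa2 (chr7:46751583-46751782, plus strand): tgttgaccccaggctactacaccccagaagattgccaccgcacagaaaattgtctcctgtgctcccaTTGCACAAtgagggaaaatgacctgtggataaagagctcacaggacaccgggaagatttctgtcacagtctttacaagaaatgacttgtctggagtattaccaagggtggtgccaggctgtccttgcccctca
Saa3 (chr7:46715727-46715926, minus strand): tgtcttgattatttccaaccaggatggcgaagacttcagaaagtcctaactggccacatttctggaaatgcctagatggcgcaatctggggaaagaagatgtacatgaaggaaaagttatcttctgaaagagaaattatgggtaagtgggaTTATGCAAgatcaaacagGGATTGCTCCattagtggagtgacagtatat
Orm2 (chr4:63362199-63362398, plus strand): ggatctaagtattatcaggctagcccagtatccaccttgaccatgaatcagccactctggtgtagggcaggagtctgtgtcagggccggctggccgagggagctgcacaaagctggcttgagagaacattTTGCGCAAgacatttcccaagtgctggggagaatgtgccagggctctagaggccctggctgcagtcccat
Apcs (chr1:172895105-172895304, minus strand): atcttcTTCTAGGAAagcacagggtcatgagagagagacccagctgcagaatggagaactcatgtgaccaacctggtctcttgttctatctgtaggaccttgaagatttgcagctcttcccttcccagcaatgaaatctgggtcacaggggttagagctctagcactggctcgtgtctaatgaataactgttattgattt

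Over the 250 bases before the start, on either strand, the C/EBP motif TTGCNNAA matched in 6 of the 8 genes with a promoter in the RefSeq table (Saa1, Saa2, Saa3, Orm2, Hpx and Lcn2), and in 9.56% of all 32851 promoters in it. The STAT motif TTCNNNGAA matched in Apcs and Itih4, 2 of 8, and in 7.02% of all promoters. The NF-kB consensus matched in Saa1, Saa3 and Lcn2, 3 of 8, and in 23.2% of all promoters. Orm1 and Hp had no entry. For Lcn2, 147 of the 200 bases from 250 to 51 before the RefSeq start lie in annotated exons of the gene. Saa1 and Saa2 were 95.6% identical over 249 aligned promoter bases, and both carried the C/EBP match, but the NF-kB consensus was matched in Saa1 and not in Saa2. A match describes the letters of the window and is not evidence of binding.

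On GRCm38 the 3 Saa genes lie together on chromosome 7, Saa3 at 46711998 to 46715700, Saa1 at 46740497 to 46742980 and Saa2 at 46751790 to 46754313. Orm1 (63344560 to 63348163) and Orm2 (63362449 to 63365878) are neighbours on chromosome 4. The copies share sequence: 31.1% of the 50-base stretches of Saa1 transcripts occur in Saa2, and 20.4% of those of Orm1 occur in Orm2, so the split of reads between copies is uncertain. The other genes lie apart, Hpx on chromosome 7, Hp on 8, Lcn2 on 2, Apcs on 1 and Itih4 on 14, and no annotated gene overlaps any of the 10.

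Before the groups are compared, 3 mice must be described, because they held the highest values of most of these genes. Cirrhosis replicate 2 was the highest Cirrhosis library for 9 of the 10 genes, all but Saa3. Control replicates 7 and 8 were the top pair of the Control group for 10 of 10 genes, replicate 8 leading in 9 and replicate 7 in Saa3. Saa1 stood at 962 CPM in Cirrhosis replicate 2, where the other 5 Cirrhosis mice had a median of 15.2 CPM and a highest of 321 CPM. It stood at 709.8 and 1077 CPM in Control replicates 7 and 8, where the other 4 Control mice lay between 12.96 and 15.7 CPM. Thus a strong acute phase pattern over most of these genes appeared both in 1 mouse given CCl4 and in a pair of mice given corn oil alone. Cirrhosis replicate 1, not counted among the 3, also had high Saa levels, 321 CPM of Saa1 and 205 CPM of Saa2. It was among the top 2 of its group for 7 of the 10 genes.

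Control replicates 7 and 8 also had the smallest libraries, 63.1 and 62.5 M counts, and the largest ribosomal RNA shares, 50.9% and 60.8%. Cirrhosis replicate 2 had 101.7 M counts and a share of 37.1%, the lowest share of its group. The part of depth and RNA quality in the levels of these mice was not tested. No Cirrhosis-PTH mouse stood apart to that degree: Cirrhosis-PTH replicate 4 was highest for 5 genes, with 101 CPM of Saa1 and 26.8 CPM of Saa2. Because the 3 mice were picked for the levels of these very genes, fits without them are given as a description, and their p-values are not independent evidence.

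**Figure D1:**
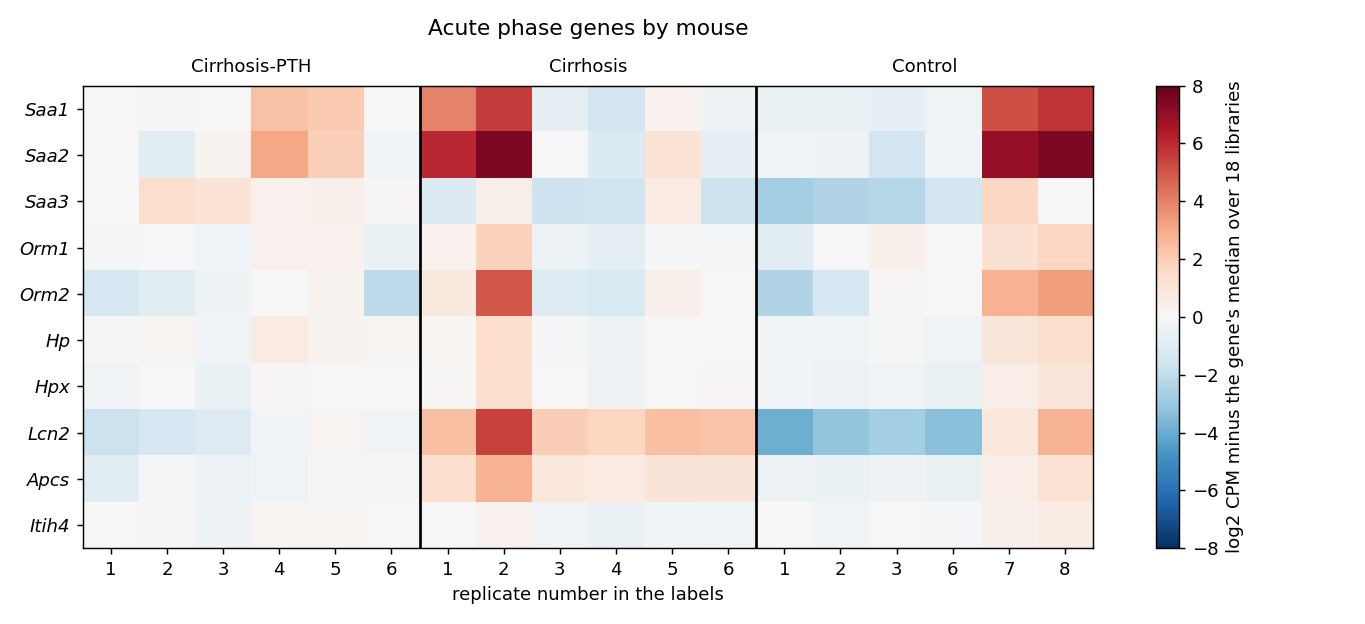
Log2 CPM of each gene in each mouse minus that gene's median over all 18 libraries (colour), with mice in columns by group and replicate number and genes in rows. Cirrhosis replicate 2 and Control replicates 7 and 8 are red (higher) for Saa1, Saa2 and Orm2. Lcn2 and Apcs are red in all 6 Cirrhosis mice and also in Control replicates 7 and 8.

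Setting Cirrhosis-PTH against Cirrhosis addresses PTH treatment in mice given CCl4, and setting Cirrhosis against Control addresses CCl4 itself. Lcn2 and Apcs were lower in Cirrhosis-PTH than in Cirrhosis and higher in Cirrhosis than in Control, and the other 8 genes were called in neither comparison. That is 2 of 10 genes called in Cirrhosis-PTH against Cirrhosis, where 38.6% of all genes were called (18.6% lower), and 2 of 10 in Cirrhosis against Control, where 50.5% were (25.5% higher). In Cirrhosis-PTH against Control 0 of 10 were called by edgeR, with 1 (Saa2) at an unadjusted p under 0.05 and 1 (Saa2) called by DESeq2, against 8.82% of all genes called by edgeR. The median log2 fold change of the 10 genes was -1.10 in Cirrhosis-PTH against Cirrhosis, -0.15 in Cirrhosis against Control and -0.52 in Cirrhosis-PTH against Control, beside -0.0032, 0.015 and 0.0055 over all genes tested. Each pair of comparisons shares one group of mice, so their values are not independent of each other.

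**Figure D2:**
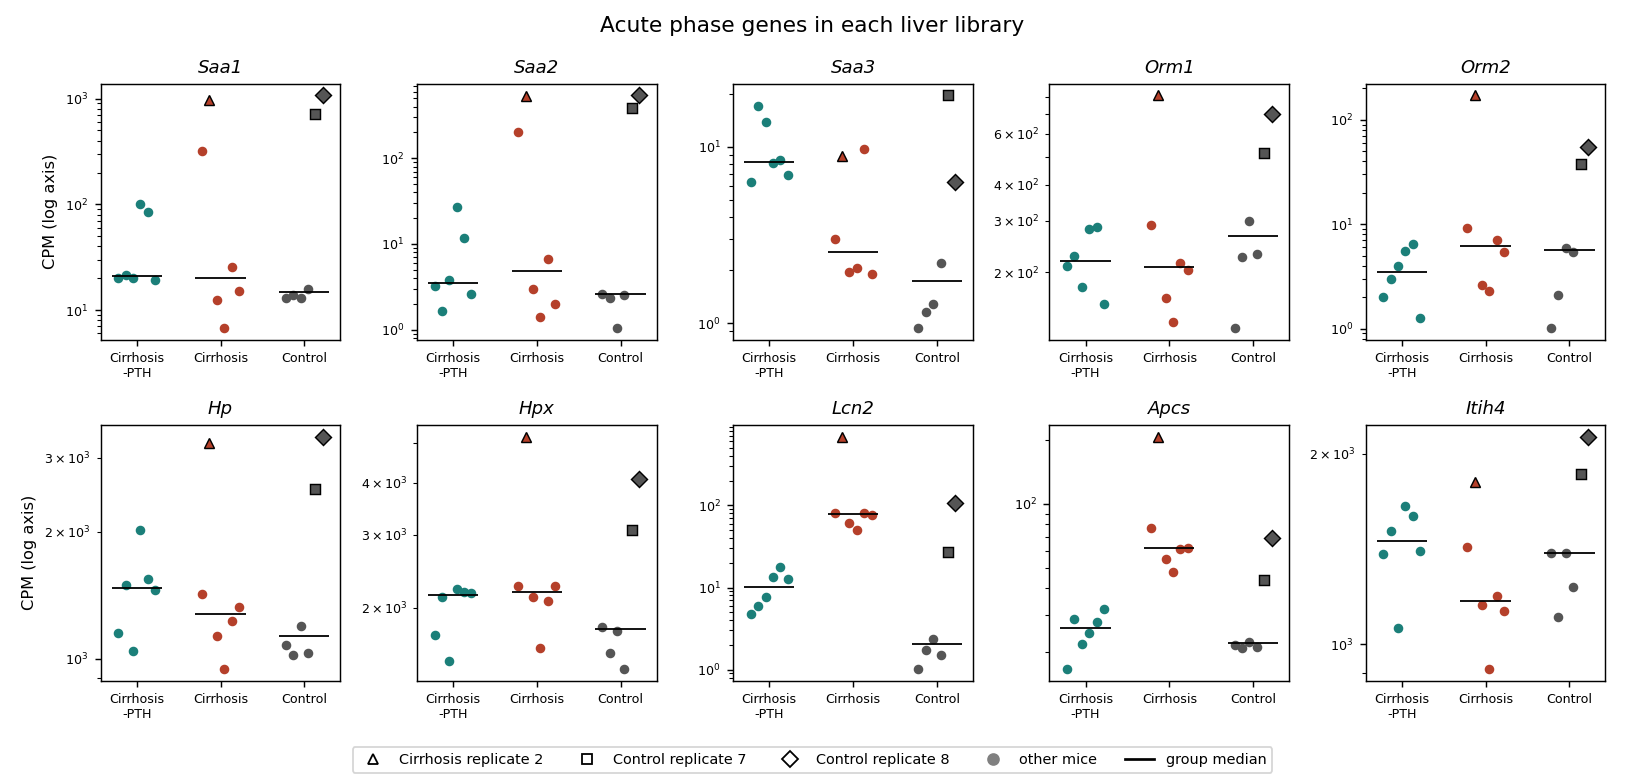
CPM (log axes) of the 10 genes in each liver library, 1 point per mouse, with the group median as a line and the 3 mice that stood apart as a triangle, a square and a diamond. The Cirrhosis-PTH and Cirrhosis points do not overlap for Lcn2 and Apcs, whereas for Saa1 the medians of 20.8, 20.3 and 14.8 CPM lie close together and a few mice lie far above them.

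Lcn2, the siderophore-binding lipocalin made by injured hepatocytes and by neutrophils, had 4.74, 10.1 and 17.7 CPM as its lowest, median and highest level in Cirrhosis-PTH livers. Its levels were 50.6, 78.1 and 689.8 CPM in Cirrhosis livers and 1.01, 2.03 and 107 CPM in Control livers. Every Cirrhosis-PTH mouse was below every Cirrhosis mouse, a pattern that 11.0% of all genes showed in that direction. Cirrhosis and Control overlapped only through Control replicate 8 at 107 CPM, as 5 of the 6 Control mice lay at or below 27.2 CPM. Lcn2 averaged 10.3 ± 5.03 CPM in Cirrhosis-PTH, 173 ± 253 CPM in Cirrhosis and 23.5 ± 42.2 CPM in Control (SD, n = 6 each).

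The log2 fold change of Lcn2 was -4.06 ± 1.21 in Cirrhosis-PTH against Cirrhosis (adjusted p = 0.0141), a 16.7-fold lower mean. It was 2.90 ± 1.15 in Cirrhosis against Control (adjusted p = 0.0465), a call close to the threshold, and -1.16 ± 1.10 in Cirrhosis-PTH against Control (adjusted p = 0.59). Without Cirrhosis replicate 2 the first value was -2.75 and lost its call (adjusted p = 0.052). DESeq2 gave no adjusted p for Lcn2 in any comparison, so it neither called nor failed to call the gene. With the 3 mice left out, Lcn2 changed by -2.75 ± 0.32 in Cirrhosis-PTH against Cirrhosis (adjusted p = 1.49e-05), by 5.42 ± 0.44 in Cirrhosis against Control (adjusted p = 3.97e-07) and by 2.67 ± 0.39 in Cirrhosis-PTH against Control (adjusted p = 0.00097). In that fit the order of the 3 groups from high to low was therefore Cirrhosis, Cirrhosis-PTH, Control, and the third comparison turned its direction. The call of Lcn2 in Cirrhosis against Control was lost when any 1 of 15 libraries was left out, all but Control replicate 8, Cirrhosis replicate 3 and Cirrhosis replicate 4, at adjusted p-values of up to 0.215. The log2 fold change of Lcn2 there was 4.71 once Control replicate 8 was left out and 1.59 once Cirrhosis replicate 2 was.

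Apcs, serum amyloid P, had 16.6, 26.1 and 32.0 CPM as lowest, median and highest in Cirrhosis-PTH livers, against 47.7, 61.8 and 208 CPM in Cirrhosis livers and 21.0, 22.1 and 68.8 CPM in Control livers. All 6 Cirrhosis-PTH mice lay below all 6 Cirrhosis mice, and 4 Control mice lay between 21.0 and 22.4 CPM, within the range of Cirrhosis-PTH. Its mean was 25.2 ± 5.49 CPM in Cirrhosis-PTH, 85.2 ± 60.7 CPM in Cirrhosis and 33.1 ± 19.6 CPM in Control (SD, n = 6 each). The log2 fold change was -1.76 ± 0.40 in Cirrhosis-PTH against Cirrhosis (adjusted p = 0.0022), 3.38-fold lower. It was 1.37 ± 0.40 in Cirrhosis against Control (adjusted p = 0.0087), 2.58-fold higher.

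Apcs kept both calls when each of the 18 libraries was left out in turn, with log2 fold changes from -1.88 to -1.27 in Cirrhosis-PTH against Cirrhosis and from 0.88 (without Cirrhosis replicate 2) to 1.72 (without Control replicate 8) in Cirrhosis against Control. In Cirrhosis-PTH against Control the difference was -0.39 ± 0.39 (adjusted p = 0.62) with all libraries and 0.23 ± 0.15 (adjusted p = 0.41) with the 3 mice left out. Apcs was the one gene of the 10 called in both comparisons whose calls did not turn on single libraries.

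Marker genes of several cell types moved with these differences. As the share over all 21914 genes, 38.6% were called in Cirrhosis-PTH against Cirrhosis (4396 higher and 4068 lower). In Cirrhosis against Control 50.5% were (5591 higher and 5482 lower), and in Cirrhosis-PTH against Control 8.82% were. Without the 3 mice the shares were 37.3%, 45.7% and 8.93%, in the same order. The summed level of 13 neutrophil markers was 5.04 to 17.4 CPM in Cirrhosis-PTH, 24.7 to 219 CPM in Cirrhosis and 2.60 to 13.2 CPM in Control. Cirrhosis replicate 2 and Control replicate 8, the highest libraries for Lcn2 in their groups, were also the highest of their groups for that sum. In Cirrhosis-PTH the 2 did not match: replicate 5 was highest for Lcn2 (17.7 CPM). Replicate 3 was highest for the sum (17.4 CPM), with 7.63 CPM of Lcn2. Of 12 tested neutrophil markers, 10 were lower in Cirrhosis-PTH than in Cirrhosis and 11 were higher in Cirrhosis than in Control, and without the 3 mice these counts were 5 and 10. The sum of 10 macrophage markers ran from 222 to 300.0 CPM in Cirrhosis-PTH, from 420 to 745 CPM in Cirrhosis and from 156 to 275 CPM in Control. It too was highest in Cirrhosis replicate 2, Control replicate 8 and Cirrhosis-PTH replicate 3 of their groups. Of these 10, 6 were lower and 0 higher in Cirrhosis-PTH than in Cirrhosis, and 7 were higher and 2 (the resident macrophage markers Clec4f and Timd4) lower in Cirrhosis than in Control. Of 7 stellate cell and myofibroblast markers, 7 were lower in Cirrhosis-PTH than in Cirrhosis and 7 higher in Cirrhosis than in Control, and of 5 cholangiocyte markers 1 was lower and 5 were higher. The sum of the 7 was 147 to 487 CPM in Cirrhosis-PTH, 613 to 946 CPM in Cirrhosis and 57.4 to 172 CPM in Control. That of the 5 was 7.40 to 16.8 CPM in Cirrhosis-PTH, 15.2 to 51.1 CPM in Cirrhosis and 6.21 to 9.09 CPM in Control. The part of any of these cell types in the levels of Lcn2 and Apcs was not tested.

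Saa1 and Saa2, the serum amyloid A genes that hepatocytes switch on most steeply, had similar medians in all groups and very high levels in a few mice. Saa1 had 19.4, 20.8 and 101 CPM as lowest, median and highest in Cirrhosis-PTH livers, against 6.77, 20.3 and 962 CPM in Cirrhosis livers and 12.96, 14.8 and 1077 CPM in Control livers. Saa2 had 1.63, 3.48 and 26.8 CPM in Cirrhosis-PTH livers, against 1.41, 4.81 and 537 CPM in Cirrhosis livers and 1.05, 2.59 and 544 CPM in Control livers. What differed most was the top of the range, which reached 142 times the lowest mouse for Saa1 in Cirrhosis and 83.1 times in Control, but 5.22 times in Cirrhosis-PTH.

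Cirrhosis replicate 1 was the other Cirrhosis mouse with high levels, 321 CPM of Saa1 and 205 CPM of Saa2. In Cirrhosis-PTH, replicates 4 and 5 stood above the rest with 101 and 84.3 CPM of Saa1. Saa1 changed by -2.33 ± 1.47 in Cirrhosis-PTH against Cirrhosis (adjusted p = 0.24), by -0.46 ± 1.40 in Cirrhosis against Control (adjusted p = 0.81) and by -2.79 ± 1.49 in Cirrhosis-PTH against Control (adjusted p = 0.29). Saa2 changed by -3.92 ± 1.90 (adjusted p = 0.12), -0.30 ± 1.68 (adjusted p = 0.898) and -4.22 ± 1.92 (adjusted p = 0.20) in the same comparisons, and none of these 6 values passed the threshold. Without Cirrhosis replicate 2 the changes in Cirrhosis-PTH against Cirrhosis were -0.78 for Saa1 and -2.39 for Saa2. DESeq2 called Saa2 lower in Cirrhosis-PTH than in Cirrhosis (-3.95, adjusted p = 0.0169) and than in Control (-4.23, adjusted p = 0.0310).

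The direction of both genes against Control turned with the mice in the fit. Without Control replicates 7 and 8, a fit of 22867 genes that called 4, 6 and 1 of the 10 genes where 38.4%, 46.3% and 8.58% of all were called, Saa1 was 4.05 higher and Saa2 5.91 higher on the log2 scale in Cirrhosis than in Control (adjusted p = 0.0353 and 0.0247), and Cirrhosis-PTH against Control gave 1.70 and 1.96 (adjusted p = 0.52 and 0.57). The higher Cirrhosis means in that fit rested on replicates 1 and 2, which held 321 and 962 CPM of Saa1. No other Cirrhosis mouse exceeded 25.4 CPM of Saa1 or 6.68 CPM of Saa2, and the lowest had 6.77 and 1.41 CPM. Control mice kept in the fit spanned 12.96 to 15.7 CPM for Saa1 and 1.05 to 2.61 CPM for Saa2. Without all 3 mice, Cirrhosis against Control gave 2.45 ± 1.14 for Saa1 (adjusted p = 0.100) and 4.33 ± 1.68 for Saa2 (adjusted p = 0.052). There replicate 1 was the only Cirrhosis mouse left with high levels of both genes. With the counts of both copies added together, no comparison was called, and the change was -2.73 ± 1.56 in Cirrhosis-PTH against Cirrhosis (adjusted p = 0.19).

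Saa3, the serum amyloid A gene that mice express largely in macrophages and other cells outside the hepatocyte, went its own way. It had 6.35, 8.24 and 17.1 CPM as lowest, median and highest in Cirrhosis-PTH livers, against 1.90, 2.54 and 9.80 CPM in Cirrhosis livers and 0.943, 1.74 and 19.6 CPM in Control livers. The highest single value belonged to Control replicate 7, at 19.6 CPM, and the 4 Control mice outside replicates 7 and 8 lay between 0.943 and 2.19 CPM, below every Cirrhosis-PTH mouse. Cirrhosis replicates 2 and 5, at 8.94 and 9.80 CPM, were the Cirrhosis mice that reached into the range of Cirrhosis-PTH.

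In the fit of all libraries without a replicate block Saa3 was not called, at 1.13 ± 0.72 in Cirrhosis-PTH against Cirrhosis (adjusted p = 0.25), -0.16 ± 0.73 in Cirrhosis against Control (adjusted p = 0.87) and 0.97 ± 0.73 in Cirrhosis-PTH against Control (adjusted p = 0.48). With the 3 mice left out, it was higher in Cirrhosis-PTH than in Cirrhosis by 1.43 ± 0.46 (adjusted p = 0.0257) and than in Control by 2.84 ± 0.55 (adjusted p = 0.0055), and higher in Cirrhosis than in Control by 1.41 ± 0.53 (adjusted p = 0.0444). In that fit 3, 3 and 2 of the 10 genes were called in Cirrhosis-PTH against Cirrhosis, in Cirrhosis against Control and in Cirrhosis-PTH against Control, where 37.3%, 45.7% and 8.93% of 22634 genes were. Leaving out Control replicate 7 alone gave 2.13 in Cirrhosis-PTH against Control (adjusted p = 0.0474).

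The summed level of 4 mesothelial markers also ran highest in Cirrhosis-PTH, 7.06 to 34.7 CPM there, 4.62 to 15.0 CPM in Cirrhosis and 1.46 to 7.51 CPM in Control. In Cirrhosis-PTH 2 of 4 were called higher than in Cirrhosis, and 0 of 4 in the fit without the 3 mice (all 18 libraries gave 3 at an unadjusted p under 0.05). Against Control, 3 of 4 were called higher in Cirrhosis-PTH, and 4 of 4 without the 3 mice and 4 of 4 with DESeq2. Of all genes, 38.6% and 8.82% were called in these comparisons with all libraries, and 37.3% and 8.93% without the 3 mice. The summed macrophage markers were highest in Cirrhosis, as given above, while the median of Saa3 was highest in Cirrhosis-PTH. The 4 adipocyte markers summed to at most 0.263 CPM in any library, and 2 of them had no count in any group. The part of mesothelial cells and macrophages in the level of Saa3 was not tested.

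**Figure D3:**
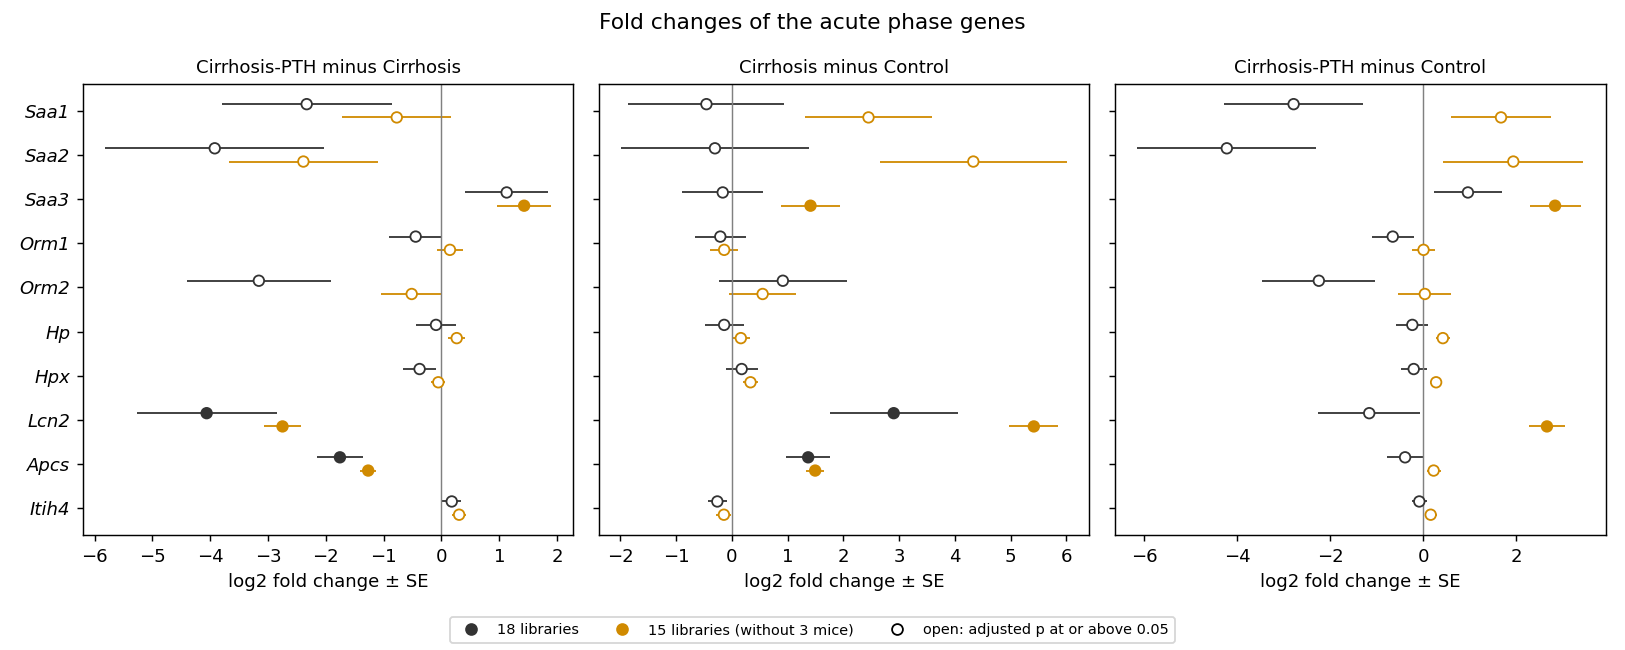
Log2 fold changes ± SE of the 10 genes in the 3 comparisons, first group minus second, from all 18 libraries (dark) and from the 15 libraries without Cirrhosis replicate 2 and Control replicates 7 and 8 (orange), filled where the adjusted p was under 0.05. Lcn2 and Apcs are filled in both fits on the left and in the middle, Saa3 is filled only in the 15-library fit, and Saa1, Saa2 and Lcn2 are among the genes that change sign between fits in Cirrhosis-PTH minus Control.

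Orm1 and Orm2, the orosomucoid genes, differed in how far single mice departed from the rest. Orm2 had 1.26, 3.49 and 6.45 CPM as lowest, median and highest in Cirrhosis-PTH livers, against 2.30, 6.21 and 172 CPM in Cirrhosis livers and 1.01, 5.67 and 54.6 CPM in Control livers. Cirrhosis replicate 2 held 18.7 times the next highest Cirrhosis mouse, and without it the change in Cirrhosis-PTH against Cirrhosis was -0.52 in place of -3.16 ± 1.25 (adjusted p = 0.70 without it and 0.057 with it). DESeq2 called that change (-3.19, adjusted p = 0.0064). Without Control replicates 7 and 8 it was called too (-3.18, adjusted p = 0.0361). Against Control, Orm2 changed by 0.92 ± 1.15 in Cirrhosis (adjusted p = 0.54) and by -2.24 ± 1.21 in Cirrhosis-PTH (adjusted p = 0.29).

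Orm1 had 155, 218 and 285 CPM as lowest, median and highest in Cirrhosis-PTH livers, against 135, 209 and 813 CPM in Cirrhosis livers and 128, 266 and 699 CPM in Control livers. The 3 groups overlapped, and its highest mice were again Cirrhosis replicate 2 and Control replicate 8. It changed by -0.45 ± 0.45 in Cirrhosis-PTH against Cirrhosis (adjusted p = 0.49), by -0.21 ± 0.45 in Cirrhosis against Control (adjusted p = 0.74) and by -0.65 ± 0.46 in Cirrhosis-PTH against Control (adjusted p = 0.43). With the counts of Orm1, Orm2 and Orm3 added together, the changes were -0.57 ± 0.49, -0.13 ± 0.49 and -0.70 ± 0.49, none of them called.

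Hp and Hpx, the scavengers of hemoglobin and heme, were the highest of the 10 genes per length of transcript together with Itih4, Orm1 and Apcs, in the order Hpx, Hp, Itih4, Orm1, Apcs in all 3 groups. Hp had 1045, 1476 and 2018 CPM as lowest, median and highest in Cirrhosis-PTH livers, against 945, 1276 and 3253 CPM in Cirrhosis livers and 1022, 1136 and 3369 CPM in Control livers. Hpx had 1486, 2146 and 2223 CPM in Cirrhosis-PTH livers, against 1604, 2185 and 5172 CPM in Cirrhosis livers and 1423, 1779.5 and 4089 CPM in Control livers. The groups overlapped for both genes, and the tops were Cirrhosis replicate 2 and Control replicate 8.

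With all libraries neither gene was called, with log2 fold changes of -0.09 ± 0.35 for Hp and -0.38 ± 0.28 for Hpx in Cirrhosis-PTH against Cirrhosis (adjusted p = 0.87 and 0.33). In Cirrhosis against Control Hp changed by -0.14 ± 0.35 (adjusted p = 0.77) and Hpx by 0.18 ± 0.28 (adjusted p = 0.64). In Cirrhosis-PTH against Control they changed by -0.23 ± 0.35 and -0.20 ± 0.28 (adjusted p = 0.76 and 0.74). The counts do not bound these changes tightly: an SE of 0.35 on the log2 scale leaves room for differences larger than the ones seen.

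Itih4, a heavy chain of the inter-alpha-trypsin inhibitor family, varied least. It had 1063, 1456 and 1652 CPM as lowest, median and highest in Cirrhosis-PTH livers, against 914, 1172 and 1803 CPM in Cirrhosis livers and 1105, 1394 and 2129 CPM in Control livers. Its coefficient of variation was 14.6% in Cirrhosis-PTH, 24.3% in Cirrhosis and 25.9% in Control, against 117.9%, 172% and 156% for Saa2. Itih4 changed by 0.18 ± 0.17 in Cirrhosis-PTH against Cirrhosis (adjusted p = 0.44), by -0.26 ± 0.17 in Cirrhosis against Control (adjusted p = 0.20) and by -0.08 ± 0.17 in Cirrhosis-PTH against Control (adjusted p = 0.83). Without Cirrhosis replicate 2 the second value was -0.39 and was called (adjusted p = 0.0470).

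Over all libraries the coefficient of variation was lowest in Cirrhosis-PTH for all 10 genes, for example 15.4% for Hpx in Cirrhosis-PTH, 50.1% in Cirrhosis and 46.6% in Control. Against Control, Control replicates 7 and 8 enter that order: the other 4 Control mice spanned less than the 6 Cirrhosis-PTH mice for Saa1 (19.4 to 101 CPM in Cirrhosis-PTH and 12.96 to 15.7 CPM in Control), Apcs (16.6 to 32.0 CPM in Cirrhosis-PTH and 21.0 to 22.4 CPM in Control) and Hp (1045 to 2018 CPM in Cirrhosis-PTH and 1022 to 1195 CPM in Control). Against Cirrhosis, Cirrhosis replicate 2 enters it: the other 5 Cirrhosis mice spanned 1604 to 2256 CPM for Hpx and 945 to 1422 CPM for Hp. The Cirrhosis-PTH mice spanned 1486 to 2223 CPM and 1045 to 2018 CPM. For Saa1 and Saa2 those 5 Cirrhosis mice still spanned more, 6.77 to 321 CPM and 1.41 to 205 CPM. Cirrhosis-PTH mice spanned 19.4 to 101 CPM and 1.63 to 26.8 CPM there. No test was made of the spread.

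Ratios of gene pairs within a library need no scaling between libraries. Of 4 pairs compared in 3 comparisons, 2 pairs differed between groups by two-sided exact permutation tests over all arrangements of the mice, adjusted over the 12 tests (the smallest unadjusted p of 6 against 6 mice is 0.0022). The pairs were chosen with earlier results of these data known, so these p-values are not independent evidence. Lcn2 over Saa3 was 0.352, 1.20 and 2.11 as lowest, median and highest in Cirrhosis-PTH, 8.29, 28.9 and 77.2 in Cirrhosis and 0.685, 1.43 and 16.9 in Control. Its mean log2 difference was -4.84 in Cirrhosis-PTH against Cirrhosis (exact permutation adjusted p = 0.0130), with no overlap, and 3.90 in Cirrhosis against Control (exact permutation adjusted p = 0.0173). Every Cirrhosis mouse thus had several counts of Lcn2 for each count of Saa3, while Cirrhosis-PTH mice had about as many of the one as of the other.

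Hp over Hpx was 0.669, 0.704 and 0.908 in Cirrhosis-PTH, 0.535, 0.590 and 0.632 in Cirrhosis and 0.597, 0.703 and 0.826 in Control. The ratio was higher in every Cirrhosis-PTH mouse than in every Cirrhosis mouse, by 0.29 on the log2 scale (exact permutation adjusted p = 0.0130). It was lower in Cirrhosis than in Control, by -0.27 (exact permutation adjusted p = 0.0260), but that call was lost without any 1 of 8 libraries (Cirrhosis replicates 3 to 6 and Control replicates 3, 6, 7 and 8), at adjusted p-values of up to 0.0519. Control replicates 7 and 8 had the highest ratios of their group, 0.826 and 0.824, while Cirrhosis replicate 2 was at 0.629, within the range of the other Cirrhosis mice. Saa1 over Saa2 was lowest in the 4 mice with the highest Saa1, at 1.56 and 1.79 in Cirrhosis replicates 1 and 2 and at 1.86 and 1.98 in Control replicates 7 and 8. Saa1 over Saa2 and Orm1 over Orm2 passed in no comparison, the nearest being Orm1 over Orm2 in Cirrhosis-PTH against Cirrhosis at 1.21 (exact permutation adjusted p = 0.0987).

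**Figure D4:**
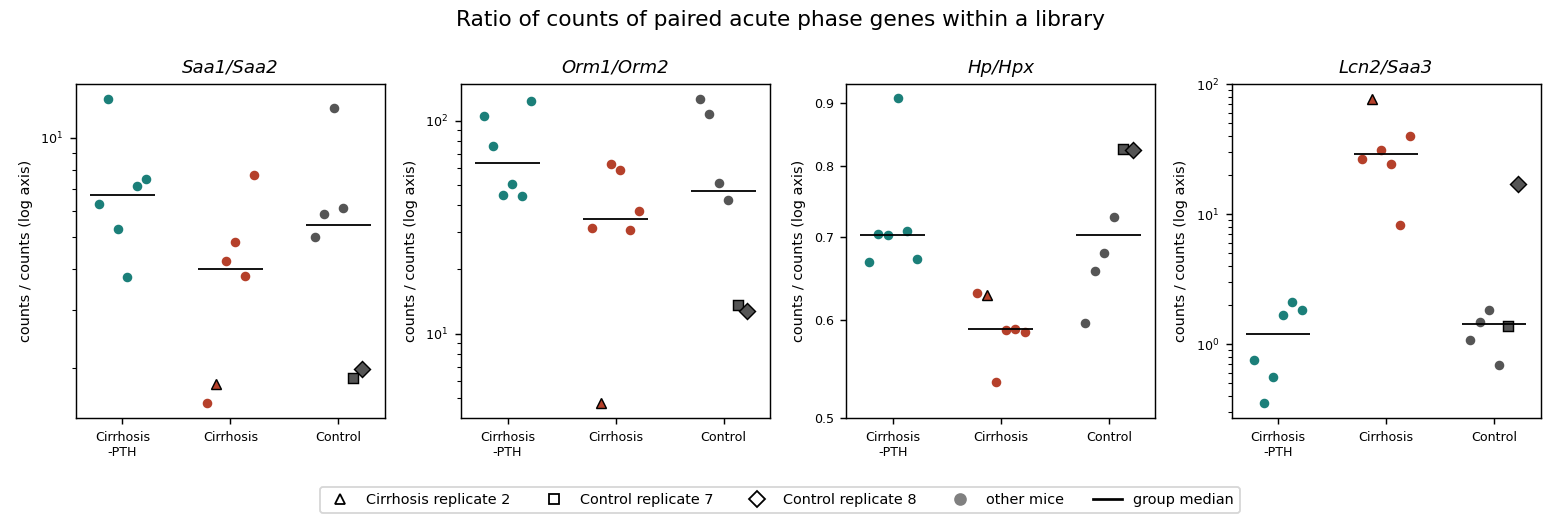
Ratios of counts within each library (log axes) for 4 pairs of acute phase genes, 1 point per mouse, with group medians as lines and symbols as in the plot of the 10 genes. Hp/Hpx lies between 0.535 and 0.632 in Cirrhosis, below all Cirrhosis-PTH mice, and Saa1/Saa2 is lowest in the mice with high Saa levels.

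Il1b and Tnf, which encode inducers of the response, were lower in Cirrhosis-PTH than in Cirrhosis. Il1b had 0.681 to 1.29 CPM in Cirrhosis-PTH livers, against 1.35 to 6.33 CPM in Cirrhosis livers and 0.491 to 1.86 CPM in Control livers, a log2 fold change of -2.35 ± 0.33 in Cirrhosis-PTH against Cirrhosis (adjusted p = 7.42e-06). Tnf changed by -2.45 ± 0.34 in the same comparison (adjusted p = 6.86e-06). Il6 did not pass the filter and reached 0.239 CPM at most. Of 11 cytokine ligands of the response 8 were tested: 5 were lower and 1 (Il18) was higher in Cirrhosis-PTH than in Cirrhosis, 6 were higher and 1 (Il18) lower in Cirrhosis than in Control, and 2 (Lif and Clcf1) were higher in Cirrhosis-PTH than in Control. Over all genes, 38.6%, 50.5% and 8.82% were called in these 3 comparisons.

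Receptors and signalling genes showed the same split, with 13 of 20 lower and 2 (Il1rap and Il6ra) higher in Cirrhosis-PTH than in Cirrhosis, and 14 higher and 2 (Il1rap and Lifr) lower in Cirrhosis than in Control. For all genes the shares called were 38.6% and 50.5% in these comparisons. Stat3, which carries the interleukin-6 signal, changed by -0.44 ± 0.11 and 0.74 ± 0.11 in these comparisons, and Socs3, its feedback inhibitor, by -1.10 ± 0.35 and 1.33 ± 0.35. Among 11 transcription factors, 6 were higher and 3 (Stat3, Rela and Nfkb1) lower in Cirrhosis-PTH than in Cirrhosis. Cebpa, a C/EBP factor of resting hepatocytes, changed by 1.12 ± 0.12 there and by -1.31 ± 0.12 in Cirrhosis against Control. Creb3l3, a liver factor that activates Apcs and Crp, changed by 0.41 ± 0.07 in Cirrhosis-PTH against Cirrhosis (adjusted p = 3.15e-05), opposite to Apcs. Cebpb and Cebpd were called in no comparison by edgeR with all libraries. In Cirrhosis against Control 3 of the 11 factors were higher and 6 lower, with 10 at an unadjusted p under 0.05. DESeq2 and the fit without the 3 mice each gave 4 higher and 6 lower there.

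In single mice the inducers and the acute phase genes were not always high together. Control replicate 7, with 709.8 CPM of Saa1, had 0.793 CPM of Il1b, below the Control median of 0.802 CPM, while Control replicate 8 had the highest Il1b of its group, 1.86 CPM. For Socs3, Control replicates 7 and 8 were the highest of their group, at 15.2 and 7.95 CPM. Cirrhosis replicate 2 had 16.2 CPM of Socs3, below the Cirrhosis median of 16.9 CPM.

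**Figure D5:**
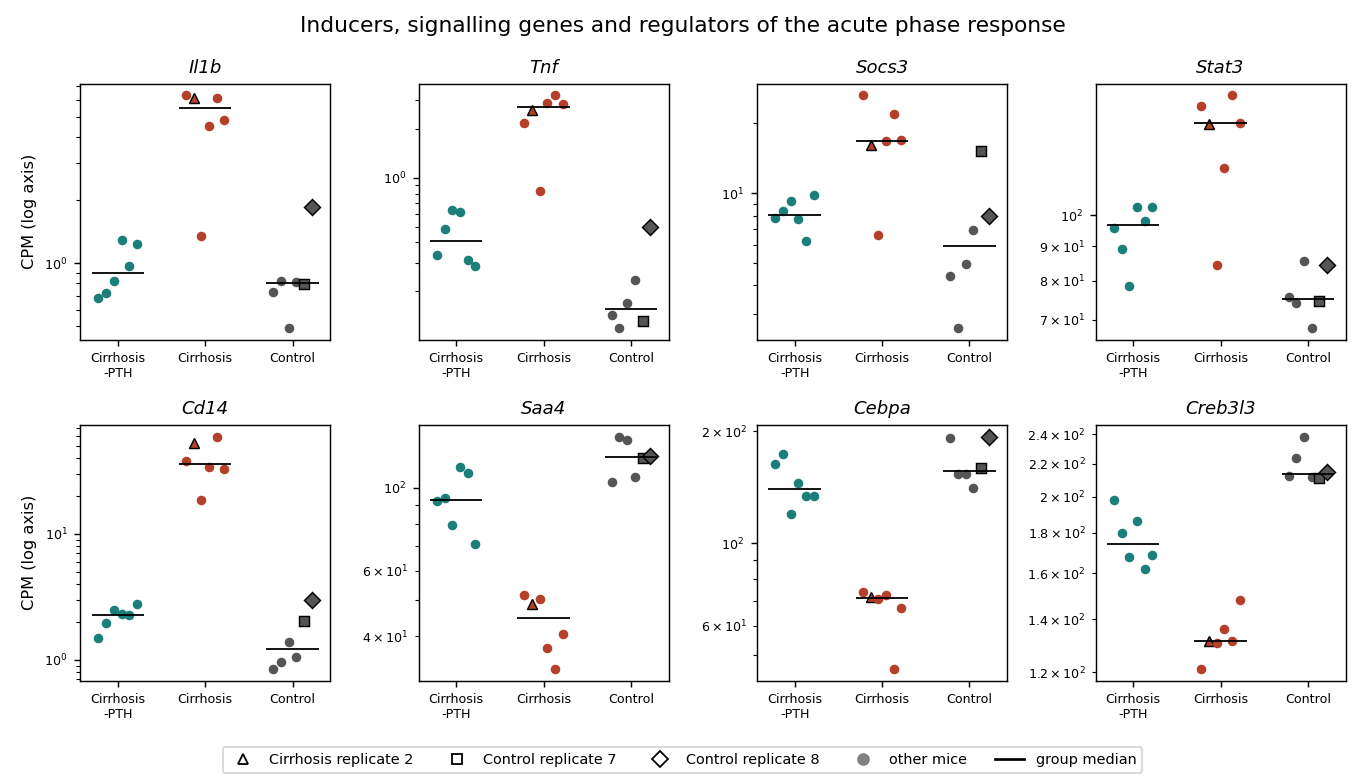
CPM (log axes) of 2 inducers, a feedback inhibitor, Stat3, other acute phase genes (Cd14 and Saa4) and 2 transcription factors in each liver library, with symbols as in the plot of the 10 genes. Il1b, Tnf and Cd14 are higher in all 6 Cirrhosis mice than in any Cirrhosis-PTH mouse, while Saa4, Cebpa and Creb3l3 are lower in all 6.

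Partners that clear the plasma proteins moved with their own pattern. Hmox1, which breaks down the heme that hemopexin delivers, had 9.48 to 13.5 CPM in Cirrhosis-PTH livers, against 42.3 to 69.3 CPM in Cirrhosis livers and 10.1 to 16.6 CPM in Control livers (log2 -2.30 ± 0.14 in Cirrhosis-PTH against Cirrhosis, adjusted p = 7.09e-10). Lrp1, the receptor for heme-bound hemopexin, changed by 0.50 ± 0.08 in that comparison and by -0.50 ± 0.08 in Cirrhosis against Control. Cd163, the macrophage receptor for haptoglobin bound to hemoglobin, was not called between Cirrhosis-PTH and Cirrhosis (0.64 ± 0.47, adjusted p = 0.32) and was lower in Cirrhosis than in Control by -2.22 ± 0.49 (adjusted p = 0.0012). Fpr2, a receptor for serum amyloid A on leukocytes, changed by -1.74 ± 0.33 in Cirrhosis-PTH against Cirrhosis, and Slc22a17, a receptor for lipocalin-2, by -0.47 ± 0.30 (adjusted p = 0.23). Of 16 such partner genes, 4 were higher and 7 lower in Cirrhosis-PTH than in Cirrhosis, 7 higher and 6 lower in Cirrhosis than in Control, and 4 higher and 1 (Blvrb) lower in Cirrhosis-PTH than in Control. The shares of all genes called were 38.6%, 50.5% and 8.82%, in the same order.

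Other genes counted as positive acute phase genes did not move as one either. Of 23 such genes, 5 were higher (Saa4, Serpina1a, Serping1, Cfb and Crp) and 4 lower (Cd14, Il1rn, Steap4 and Serpina3n) in Cirrhosis-PTH than in Cirrhosis. In Cirrhosis against Control 5 were higher (Cd14, Il1rn, Steap4, Mt1 and Mt2) and the same 5 that PTH-treated mice had higher were lower. The median log2 fold changes were -0.04 and -0.06. Among all genes tested, 38.6% and 50.5% were called in these comparisons in either direction. The counts of this list were near or below those shares. In Cirrhosis-PTH against Control edgeR called 0 of 23, with 3 at an unadjusted p under 0.05 and 1 called by DESeq2, and without the 3 mice 4 were higher. Saa4, the constitutive serum amyloid A gene that lies between Saa3 and Saa1, had 70.5, 93.0 and 114 CPM as lowest, median and highest in Cirrhosis-PTH livers, against 32.7, 44.8 and 51.8 CPM in Cirrhosis livers and 103, 121 and 137 CPM in Control livers. It changed by 1.10 ± 0.13 in Cirrhosis-PTH against Cirrhosis (adjusted p = 6.27e-07) and by -1.47 ± 0.13 in Cirrhosis against Control (adjusted p = 7.45e-09), opposite in sign to Apcs and Lcn2, and Control replicates 7 and 8 were within the range of their group.

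Among 12 negative acute phase genes, which fall during the response, 9 were higher and 1 (Ahsg) lower in Cirrhosis-PTH than in Cirrhosis, and 10 were lower in Cirrhosis than in Control. Over all 21914 genes, 4396 were higher in Cirrhosis-PTH than in Cirrhosis and 5482 were lower in Cirrhosis than in Control. Igfals, which stabilises growth factors in plasma, changed by 1.36 ± 0.15 and -1.60 ± 0.15, and Apoa2 by 1.03 ± 0.11 and -1.25 ± 0.11, all 4 called. The median changes of this list were 0.56 and -0.69, beside -0.0032 and 0.015 over all genes tested. Of 10 hepatocyte markers, some of them (such as Alb) on both lists, 8 were higher in Cirrhosis-PTH than in Cirrhosis (median 0.73) and 9 were lower in Cirrhosis than in Control (median -0.69). The part of hepatocyte content in these changes was not tested.

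The genes whose profile over the 18 libraries lay nearest to each of the 10 were found by the root mean square difference of centred log2 CPM among 11745 other genes. Within the 10, Hp and Hpx were closest to each other (0.19), as were Saa1 and Saa2 (0.87), while Orm1 was closest to Hp (0.34) and Orm2 to Saa1 (1.15). Among genes beyond the 10, Hp lay nearest to Lrg1 (0.22), Itih3 (0.26) and Adgre4 (0.29), and Hpx to Itih3 (0.24), Cp (0.25) and Lrg1 (0.25). Saa1 lay nearest to Fgl1 (1.74), Lrg1 (1.78) and Marco (1.80), and Saa2 to Marco (2.34), Gm23935 (2.48) and Fgl1 (2.48). Lcn2 lay nearest to Cd14 (1.32), Mt2 (1.38) and S100a11 (1.43), and Apcs to Ifitm1 (0.41), Spi1 (0.41) and Rac2 (0.42). Saa3 lay nearest to Gm15611 (1.03), Kif26b (1.03) and Cdkn2c (1.06), none of them nearest to another of the 10. Orm1 lay nearest to Lrg1 (0.40), Adgre4 (0.41) and Itih3 (0.43), Orm2 to Fgl1 (1.29), Marco (1.31) and Pira2 (1.35), and Itih4 to Fgb, Fgg and C3 (0.17 each). Values are smaller for genes that vary little, and all libraries share the same groups, so these are descriptions only.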

How the data were processed

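Liver RNA of 18 mice was sequenced after removal of ribosomal RNA, and the authors deposited whole-number counts per gene, with Ensembl identifiers and symbols, in 1 table. The submitters' processing notes name the build GRCm38 and Trim Galore, cutadapt 4.2, Bowtie2, Bowtie 1.3.1, StringTie 2.1.5 and HISAT2 2.2.1, with no role for each. The annotation and the strand setting are not given in the sources used here. Counts that differ in total between libraries had not been scaled.

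The 3 groups were fitted jointly over 18 libraries with edgeR 4.0.16 (R 4.3.3), using filterByExpr, TMM and its two-sided quasi-likelihood F-test with robust estimation, Benjamini-Hochberg adjusted over 21914 genes, threshold 0.05. SE is the log2 fold change divided by the square root of F. The code was tested on simulated data. CPM divides each count by the TMM-scaled library size. DESeq2 1.42.0, RLE scaling, no filter, 12-library fits, removal of 6 ribosomal RNA loci, summed copies, a replicate block and leaving out libraries were alternatives. Ratios, with 0.5 counts added for the test, were compared with exact permutation tests (scipy 1.17.1). Each library is a separate mouse. Genes, lists and tests were chosen with earlier results of these data known. All 10 genes were to be named in each comparison, and from wider lists genes among the 4 with the smallest p, those called against the direction of their list, and genes whose products bind, clear or induce the 10. Likeness named the 3 nearest genes whose log2 CPM averaged 1 or more. Gene positions, transcripts and lengths are from GENCODE M21 and promoters from RefSeq. Levels per length divide CPM by the summed exon length of the gene.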

Additional observations from a re-analysis of the deposited data

Results flagged for a closer look

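In 5 of 30 gene and group combinations of 6 mice, the extreme mouse lay further from its nearest neighbour, relative to the whole range of log2 CPM, than Dixon's 95% critical value for 6 samples allows, where chance gives about 1 in 20. All 5 are Cirrhosis replicate 2, as the highest of its group. The genes were measured in the same mice and several move together, so the 30 combinations are not independent. The 5 flags describe 1 mouse and cannot be weighed against the chance rate. The gap took 0.680 of the range for Orm2 (172 CPM), 0.670 for Hp (3253 CPM), 0.708 for Hpx (5172 CPM), 0.819 for Lcn2 (689.8 CPM) and 0.672 for Apcs (208 CPM). Control replicates 7 and 8 could not be found in this way, since each lies near the other.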

How the results depend on the processing

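Of 255 log2 fold changes of the 10 genes under alternatives other than leaving out 1 library, 199 kept direction and call, 43 changed sign, and 2 lost a call. A call was gained by 16, of which 5 also changed sign. The 2 losses were Lcn2 in Cirrhosis against Control, 2.94 without a filter on low counts (adjusted p = 0.067) and 2.94 when 12 libraries were fitted (adjusted p = 0.10). The 255 leave out Lcn2 with DESeq2, which had no adjusted p in any comparison, so its calls there could not be compared. The count of the 10 genes called in Cirrhosis against Control was 1 with DESeq2, 1 without a filter and 1 with 12 libraries, in place of 2. DESeq2 called 11455 genes in all there, and it gave no adjusted p for Lcn2 in any comparison. In Cirrhosis-PTH against Cirrhosis the count was 3 with DESeq2 (Apcs, Saa2 and Orm2, with 8958 genes called in all). It was 3 there with the replicate block (8219 in all), in place of 2. In Cirrhosis-PTH against Control the count was 1 with DESeq2 (2720 of 21914 genes in all), 1 with the replicate block (1354 in all), 1 without Control replicates 7 and 8 and 2 without all 3 mice, in place of 0. Without Control replicates 7 and 8 it was 4 in Cirrhosis-PTH against Cirrhosis and 6 in Cirrhosis against Control, where 38.4% and 46.3% of all genes were called. Beyond what the design of the replicate block fixes, given below, the cause of these shifts was not tested.

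Replicate numbers did not pair the mice, as deviations of mice with the same number correlated between -0.064 and 0.051. With the replicate block, signs turned in Cirrhosis against Control for Hp (0.42), Orm1 (0.27), Saa1 (2.26), Saa2 (3.72) and Saa3 (1.36), and in Cirrhosis-PTH against Control for Apcs (0.29), Hp (0.40), Hpx (0.32), Itih4 (0.16), Lcn2 (2.71), Orm1 (0.026), Saa1 (1.29) and Saa2 (1.86). The block gave Saa3 calls in Cirrhosis-PTH against Cirrhosis (1.36, adjusted p = 0.0292) and against Control (2.72, adjusted p = 0.0160). It shares only 4 numbers between Control and the other groups. Numbers 7 and 8 occur in Control alone, so Control replicates 7 and 8 add nothing to its fold changes against Control. There the block is close to leaving out those mice and is not a separate check. In Cirrhosis-PTH against Control, Lcn2 was 2.71 with the block and 2.69 without them, and Saa3 2.72 and 2.87. Signs differed for Orm2 there (-0.10 and 0.062) and for Itih4 in Cirrhosis against Control (-0.029 and 0.039).

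Without Control replicates 7 and 8, signs turned in Cirrhosis against Control for Hp (0.57), Itih4 (0.039), Orm1 (0.51), Saa1 (4.05), Saa2 (5.91) and Saa3 (1.77), and in Cirrhosis-PTH against Control for Apcs (0.26), Hp (0.45), Hpx (0.31), Itih4 (0.19), Lcn2 (2.69), Orm1 (0.036), Orm2 (0.062), Saa1 (1.70) and Saa2 (1.96). Without all 3 mice, an alternative chosen after seeing the data, they turned in Cirrhosis-PTH against Cirrhosis for Hp (0.26) and Orm1 (0.15), in Cirrhosis against Control for Hp (0.16), Saa1 (2.45), Saa2 (4.33) and Saa3 (1.41), and in Cirrhosis-PTH against Control for Apcs (0.23), Hp (0.43), Hpx (0.28), Itih4 (0.16), Lcn2 (2.67), Orm1 (0.0097), Orm2 (0.038), Saa1 (1.68) and Saa2 (1.94).

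With each library left out in turn, 1 to 3, 1 to 2 and 0 to 1 of the 10 genes were called in Cirrhosis-PTH against Cirrhosis, Cirrhosis against Control and Cirrhosis-PTH against Control, where 7724 to 8604, 10385 to 11142 and 1293 to 2009 of all genes were. Saa1 ran from -2.77 to -0.78 and Saa2 from -4.79 to -2.39 in Cirrhosis-PTH against Cirrhosis. Ranges that spanned 0 in Cirrhosis-PTH against Cirrhosis were -0.23 to 0.26 for Hp and -0.60 to 0.15 for Orm1. In Cirrhosis against Control they were -0.49 to 0.18 for Hp, -0.15 to 0.43 for Hpx, -0.80 to 0.11 for Orm1, -1.73 to 1.69 for Orm2, -2.01 to 0.55 for Saa1, -1.83 to 0.70 for Saa2, -0.53 to 1.002 for Saa3 and -0.84 to 0.022 for the log2 ratio of Orm1 to Orm2. In Cirrhosis-PTH against Control they were -0.34 to 0.082 for Hp, -0.31 to 0.047 for Hpx, -0.16 to 0.040 for Itih4, -1.42 to 0.65 for Lcn2 and -0.046 to 0.061 for the log2 ratio of Hp to Hpx. Across these fits the log2 ratio of Hp to Hpx in Cirrhosis against Control ran from -0.32 to -0.23.

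The smallest count of any of the 10 genes in any library was 62, for Saa2 in Control replicate 3. The largest SE of a log2 fold change over all libraries was 1.92, for Saa2.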

Other observations

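Relatives of Itih4 in the inter-alpha-trypsin inhibitor family moved in ways that Itih4 did not by the same test. Itih1 and Itih2, heavy chains made by hepatocytes, were higher in Cirrhosis-PTH than in Cirrhosis by 0.54 ± 0.09 and 0.30 ± 0.10 on the log2 scale, and lower in Cirrhosis than in Control by -0.61 ± 0.09 and -0.35 ± 0.10, as was Ambp, which encodes their partner bikunin, by -0.45 ± 0.13. Tnfaip6, the enzyme that moves heavy chains onto hyaluronan, changed by -2.56 ± 0.76 in Cirrhosis-PTH against Cirrhosis and by 4.07 ± 0.87 in Cirrhosis against Control. All 7 values had adjusted p-values under 0.05 by edgeR. Differences between Itih4 and these genes were not tested.

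Of 10 feedback inhibitors of interleukin-6 and NF-kB signalling, 6 were lower (Il1rn, Il1r2, Tnfaip3, Nfkbiz, Socs3 and Zc3h12a) and 1 (Pias3) was higher in Cirrhosis-PTH than in Cirrhosis, and the same 6 were higher in Cirrhosis than in Control. The shares of all genes called were 38.6% and 50.5%, in the same order. Tnfaip3, which restrains NF-kB, changed by -1.40 ± 0.18 and 2.34 ± 0.19 in these comparisons and was higher in Cirrhosis-PTH than in Control by 0.94 ± 0.18.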
